A study of Homo sapiens with 6 samples.

Results

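Transcripts of PTX3 and of 8 genes of the complement system were followed in human hepatic stellate cells made to express fibroblast activation protein α (FAPα). The 9 genes are PTX3, C1R, C1S, C3, CFB, SERPING1, CD46, CD55 and CD59, and each was found by its symbol on 1 row of a table of 60748 genes. They were chosen by function with their difference between the cell lines already known, PTX3 as a gene that was higher in the FAPα line, so that difference is given for them as a description, with no test. LX-2 cells, an immortal human hepatic stellate line in wide use, had been infected with lentivirus carrying either a FAPα overexpression plasmid (LX-2FAP, n = 3 libraries) or its control vector GV367 (LX-2Vector, n = 3 libraries). The plasmid and the vector shared a ubiquitin promoter, EGFP and a puromycin resistance gene, stable clones had been picked with puromycin (how many is not given in the sources used here), and both lines had been cultured for 24 hours before RNA sequencing. Nothing in the labels says whether libraries of 1 line came from separate cultures, so errors and p-values measure the spread between these libraries, which may be technical. In such bulk samples, fewer cells of a type and less RNA per cell cannot be told apart.

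Complement is a chain of plasma proteins that marks microbes and damaged cells and then punches holes in their membranes. In the classical pathway, C1q binds its target, the protease C1r activates C1s, and C1s cleaves the next components, which leads to the cleavage of C3. In the alternative pathway, factor B joins deposited C3 to form the enzyme that cleaves more C3, and host cells hold the chain in check with C1 inhibitor and with the membrane proteins CD46, CD55 and CD59. Hepatocytes make most of the circulating complement, while fibroblast-like cells make parts of it locally. PTX3, the long pentraxin, is a secreted pattern-recognition protein that binds C1q and factor H and is made at sites of inflammation by stromal and myeloid cells.

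Total counts per library ran from 17355700 to 26352060. FAP, the overexpressed gene, had 49, 42 and 55 counts in LX-2Vector and 14864, 15160 and 14805 counts in LX-2FAP, a log2 fold change of 8.33 (SE 0.13; adjusted p = 4.47e-16 by the edgeR quasi-likelihood test). On the first principal component of all tested genes (36.2% of the variance), LX-2Vector libraries lay between -20.7 and -11.6 and LX-2FAP libraries between 1.91 and 25.4, with LX-2FAP replicate 1 nearest to the controls. Stellate cell markers summed to between 343 and 372 FPKM (fragments scaled to gene length and library depth) over all 6 libraries. Of these markers, 10 of 12 were tested, with VIM higher and COL1A1, COL3A1 and PDGFRB lower in LX-2FAP. The stellate sum was mostly VIM, at means of 300.8 FPKM in LX-2Vector and 323.5 FPKM in LX-2FAP. COL1A1 came next, at means of 34.3 and 25.5 FPKM. In LX-2Vector, COL3A1 averaged 6.22, PDGFRB 3.51, ACTA2 1.295, LUM 0.395 and DCN 0.108 FPKM. LRAT, the retinol-esterifying enzyme of quiescent stellate cells, had no count. Hepatocyte markers were at or near 0, with a summed level of 0.360 to 0.426 FPKM in LX-2Vector and 0.317 to 0.378 FPKM in LX-2FAP, 1 of 8 tested and TTR without a count. Macrophage markers summed to 3.45 to 3.996 and 3.26 to 3.54 FPKM (4 of 8 tested), endothelial markers to 1.64 to 1.89 and 1.24 to 1.65 FPKM (5 of 6 tested, VWF lower), epithelial markers to 27.1 to 27.9 and 23.1 to 26.1 FPKM (4 of 6 tested) and lymphoid markers to 0.475 to 0.757 and 0.273 to 0.474 FPKM (0 of 5 tested). The epithelial sum was mostly KRT8, at means of 24.3 FPKM in LX-2Vector and 22.1 FPKM in LX-2FAP. Only the epithelial and lymphoid sums did not overlap between the lines, and their part in the differences given here was not tested.

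All 9 genes had enough counts to be tested, with 68 to 6861 counts per library. PTX3 and CD59 were higher in LX-2FAP, C1R, C1S, C3, CFB and SERPING1 were lower, and CD46 and CD55 overlapped between the lines. By the call used for all genes (edgeR quasi-likelihood test, adjusted p under 0.05), 7 of the 9 were called, 2 higher and 5 lower, where 5.29% of the 18275 tested genes were called, 2.57% higher and 2.73% lower. Groups did not overlap for 7 of the 9 genes and for 26.4% of all tested genes. The median log2 fold change was -0.38 over the 9 genes and -0.01 over all tested genes. Since the genes were selected on this same contrast, nothing is read from these counts. Calls fell among all genes when a library other than LX-2FAP replicate 1 was left out. Without LX-2FAP replicate 1, 10.4% of all tested genes and 7 of the 9 were called. Once LX-2FAP replicate 2 was dropped, 0.687% of all tested genes and 2 of the 9 (PTX3 and C1R) were called, and once LX-2FAP replicate 3 was dropped, 0.138% and the same pair. Dropping LX-2Vector replicate 3 left 2.12% of all genes and 3 of the 9, and dropping LX-2Vector replicate 2 left 3.54% and 4. By limma on log2 FPKM 0 of the 9 and 0.0109% of all tested genes were called, while 7 of the 9 and 19.9 to 20% of all genes, by pseudocount, had an unadjusted p under 0.05.

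**Figure D1:**
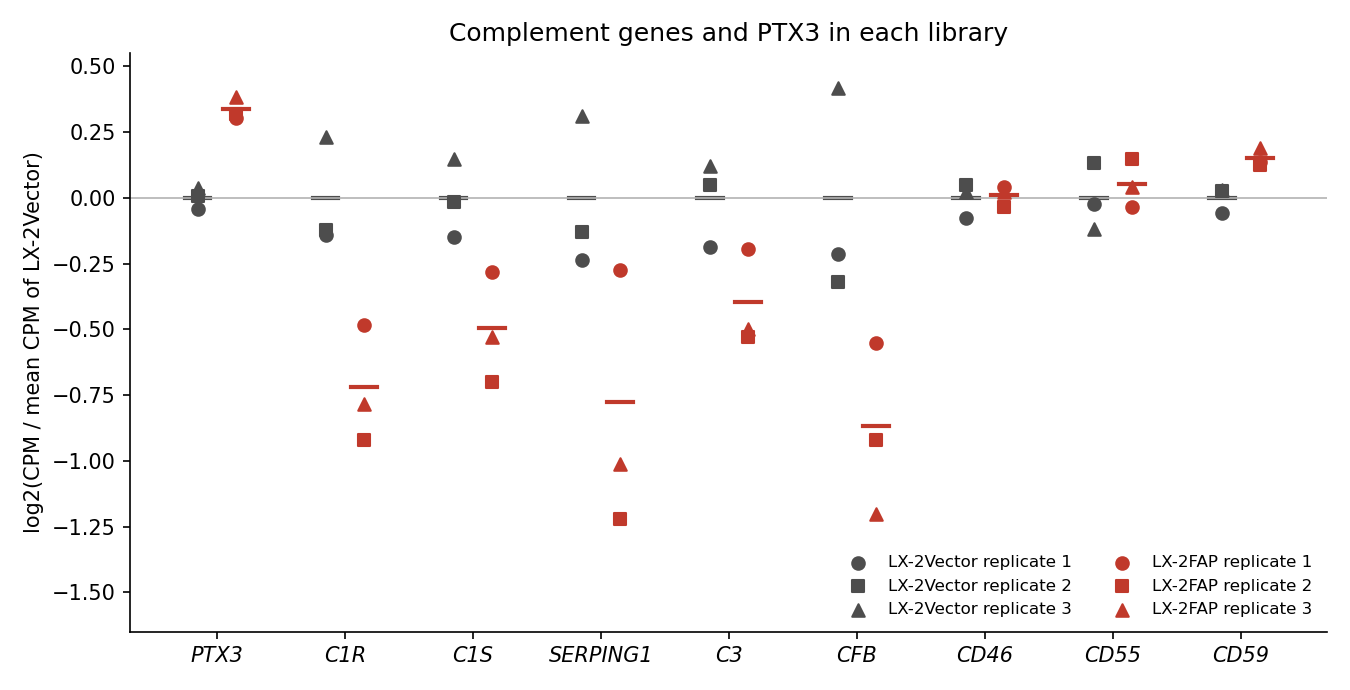
Level of each of the 9 genes in each library, as log2 of depth-scaled counts (CPM) over the mean CPM of the 3 LX-2Vector libraries; symbols are replicates and short lines are group means. PTX3 and CD59 sit above every control in all 3 LX-2FAP libraries, and for the 5 lower genes LX-2FAP replicate 1 is the library nearest to the controls while LX-2Vector replicate 3 is the highest.

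PTX3 (ENSG00000163661, GRCh38 chr3:157436789-157443628, plus strand) is a 3-exon gene that lies inside VEPH1, a gene of the opposite strand. Its promoter is printed because it is the only pentraxin gene of the set and NF-kB and C/EBP factors are known regulators of it. The window runs 250 bases before to 50 bases after the RefSeq start, at chr3:157436600-157436899 on the plus strand of GRCh38.p14. Capitals mark matches on either strand to an NF-kB pattern (GGG, any 5 bases, CC) and a C/EBP pattern (TTGCNNAA, here on the other strand).

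PTX3: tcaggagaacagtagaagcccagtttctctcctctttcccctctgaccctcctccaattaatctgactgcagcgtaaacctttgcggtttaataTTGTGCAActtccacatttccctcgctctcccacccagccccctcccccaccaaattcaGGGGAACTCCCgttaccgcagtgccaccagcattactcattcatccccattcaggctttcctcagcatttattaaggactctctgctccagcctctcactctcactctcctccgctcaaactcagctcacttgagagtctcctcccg

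The NF-kB letters stood at -97 to -87, where matches overlapped, and the C/EBP letters at -156 to -149, counted from the start base as 1. A match is only a run of letters, and the NF-kB pattern was held by 58.7% of 35116 RefSeq promoter windows of the same length, the C/EBP pattern by 10.5%.

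In LX-2Vector replicates 1 to 3, PTX3 was at 136.9, 141.4 and 144.4 CPM, which are counts scaled to equal library depth. The LX-2FAP replicates held 173.9, 175.9 and 183.6 CPM. The lowest LX-2FAP library thus stood above the highest control, and the spread within each line was small beside the gap. The mean went from 140.9 ± 3.81 to 177.8 ± 5.12 CPM (SD, n = 3 each), a 1.26-fold level and a log2 fold change of 0.34 (log2FC; SE 0.04, 95% interval 0.25 to 0.43). Among the 469 genes called higher, 35 had a larger log2 fold change than PTX3, and 28 of these had a mean of at least 10 CPM. Leaving out any 1 library kept the PTX3 log2 fold change between 0.31 and 0.36. VEPH1, within which PTX3 lies, was at 36.9, 38.4 and 41.9 CPM in LX-2Vector and at 47.6, 50.4 and 53.5 CPM in LX-2FAP, a log2 fold change of 0.37 (SE 0.06; adjusted p = 0.00765 by the edgeR quasi-likelihood test), which was not called without LX-2FAP replicate 3. The genes share 3.66% of the exon bases of PTX3 on opposite strands, and whether counting used strand is not given in the sources used here, so reads on those bases cannot be told apart.

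Transcripts of proteins that PTX3 is known to bind did not pass the test in either direction. TNFAIP6, a hyaluronan-modifying protein that works with PTX3 in building matrix, was at 3.87 ± 0.582 CPM in the controls and at 4.19 ± 0.465 CPM with FAPα (log2FC 0.12, 95% interval -0.19 to 0.43, adjusted p = 0.695 by edgeR). FGF2, a growth factor that PTX3 sequesters, was at 132.7 ± 8.40 and 144.8 ± 7.07 CPM (log2FC 0.13, 95% interval 0.02 to 0.24, adjusted p = 0.155 by edgeR). The interval for TNFAIP6 held 0, and that for FGF2 lay just above it before adjustment. SELP, the adhesion receptor P-selectin, had 6 counts in all libraries together and was not tested.

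C1R and C1S encode the proteases of the C1 complex and are neighbours on chromosome 12, and SERPING1 encodes C1 inhibitor, the serpin that inactivates both. C1R (ENSG00000159403, chr12:7080199-7092607, minus strand) and C1S (ENSG00000182326, chr12:6988259-7071032, plus strand) point towards each other across 9166 bases with no protein-coding gene between them. The C1R window at chr12:7092396-7092695 on the minus strand is printed since C1R had the largest FPKM level among the genes that were lower, with capitals for C/EBP (either strand) and NF-kB matches.

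C1R: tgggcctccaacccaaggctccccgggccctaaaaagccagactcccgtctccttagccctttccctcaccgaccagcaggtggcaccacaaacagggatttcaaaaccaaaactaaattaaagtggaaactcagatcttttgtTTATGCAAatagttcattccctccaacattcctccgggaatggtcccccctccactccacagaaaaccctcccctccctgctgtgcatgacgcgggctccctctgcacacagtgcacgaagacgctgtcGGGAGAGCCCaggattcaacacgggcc

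The C/EBP letters lay at -106 to -99 and the NF-kB letters at 24 to 33. A further C1R window, about a RefSeq start within the gene, also held both patterns and a GAS pattern (TTCNNNGAA, the letters that STAT factors bind), which 7.66% of all windows held.

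C1R was at 55.8, 56.5 and 72.2 CPM in LX-2Vector replicates 1 to 3 and at 43.97, 32.5 and 35.7 CPM in LX-2FAP replicates 1 to 3. Every LX-2FAP library was below every control. Means were 61.5 ± 9.26 and 37.4 ± 5.93 CPM, a 0.612-fold level and a log2 fold change of -0.71 (SE 0.10, 95% interval -0.93 to -0.49). Of the 498 genes called lower, 72 had a larger fall. C1R shares 11.4% of its exon bases with C1RL on the same strand, so a part of its counts is uncertain.

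C1S showed the same order of libraries, with 37.9, 41.5 and 46.5 CPM in LX-2Vector and 34.5, 25.9 and 29.1 CPM in LX-2FAP. Here LX-2FAP replicate 1 came near the lowest control without reaching it. The C1S mean went from 41.98 ± 4.32 to 29.8 ± 4.39 CPM, a log2 fold change of -0.48 (SE 0.09, 95% interval -0.68 to -0.29). C1S shares 3.54% of its exon bases with EMG1, a ribosome-assembly methyltransferase whose log2FC was 0.15 (adjusted p = 0.0887 by edgeR).

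Per length, C1R stood above C1S in all 6 libraries, and the gap was narrower in LX-2FAP. The ratio of C1R to C1S FPKM was 1.64, 1.52 and 1.73 in LX-2Vector and 1.42, 1.399 and 1.37 in LX-2FAP (means 1.63 ± 0.107 and 1.395 ± 0.0251), so the groups did not overlap. An exact permutation test of 3 against 3 cannot give a 2-sided p below 0.1, and none was run on these values.

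SERPING1 (ENSG00000149131, chr11:57597387-57614853, plus strand) was at 14.7, 15.8 and 21.5 CPM in LX-2Vector and at 14.4, 7.45 and 8.59 CPM in LX-2FAP. LX-2FAP replicate 1 differed from the lowest control by less than the controls did from each other, while the other 2 LX-2FAP libraries stood far below. The mean fell from 17.4 ± 3.63 to 10.1 ± 3.70 CPM, a log2 fold change of -0.75 (SE 0.18, 95% interval -1.13 to -0.36). Without LX-2FAP replicate 1 the SERPING1 log2 fold change was -1.10, and without LX-2Vector replicate 3 it was -0.55. The DESeq2 Wald test did not call SERPING1, nor did edgeR with the trend on GC content removed. The summed FPKM of C1R and C1S over that of SERPING1 was 7.60, 7.38 and 6.61 in LX-2Vector and 6.51, 9.31 and 8.96 in LX-2FAP. This ratio of proteases to inhibitor overlapped between the lines. Its size depends on the gene length behind the deposited SERPING1 FPKM, which was 7231 bases where the merged exons measure 3603 bases.

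C3, the protein on which all complement pathways converge, and CFB, factor B of the alternative pathway, were the least abundant of the 9 genes per length. The CFB window at chr6:31945845-31946144 on the plus strand is printed because CFB had the largest log2 fold change of the set and its window held the most kinds of pattern, with capitals for NF-kB, GAS, TATA-box (TATAAA) and ISRE matches. The ISRE pattern, known from interferon-responsive promoters, is the word GAAA repeated after a gap of any 2 bases, and here it lies on the other strand.

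CFB: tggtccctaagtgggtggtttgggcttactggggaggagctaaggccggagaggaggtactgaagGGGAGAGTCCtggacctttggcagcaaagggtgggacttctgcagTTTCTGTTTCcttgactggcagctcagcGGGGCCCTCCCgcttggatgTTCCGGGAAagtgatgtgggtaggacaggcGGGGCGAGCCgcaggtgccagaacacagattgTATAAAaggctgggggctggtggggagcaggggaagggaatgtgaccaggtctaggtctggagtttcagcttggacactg

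NF-kB letters stood at -185 to -176, at -112 to -102 in overlapping matches and at -62 to -53. The ISRE letters stood at -140 to -131, the GAS letters at -92 to -84 and the TATA letters at -30 to -25. Among all windows, 3.57% held the ISRE pattern and 11.5% the TATA pattern.

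CFB (ENSG00000243649, chr6:31945650-31952084, plus strand) was at 6.44, 5.98 and 9.97 CPM in LX-2Vector and at 5.09, 3.95 and 3.25 CPM in LX-2FAP. No LX-2FAP library reached a control, and LX-2Vector replicate 3 stood apart from the other controls. The mean fell from 7.46 ± 2.18 to 4.09 ± 0.931 CPM, a 0.553-fold level and a log2 fold change of -0.85 (SE 0.19, 95% interval -1.26 to -0.45). Without LX-2Vector replicate 3 the CFB log2 fold change was -0.59. CFB shares 45% of its exon bases with AL645922.1, a read-through transcript of C2 and CFB that was listed with 0 counts in every library. How reads on shared bases were counted is not given in the sources used here. The level of CFB and its last place per length are therefore uncertain. C2, the next gene upstream and the classical pathway's counterpart of factor B, shares 0.46% of CFB exon bases and went from 1.71 ± 0.169 to 1.01 ± 0.131 CPM (log2FC -0.75 with SE 0.21, adjusted p = 0.0511 by edgeR), which did not pass the test, on 173 counts in all.

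C3 (ENSG00000125730, chr19:6677704-6730562, minus strand) was at 13.4, 15.8 and 16.6 CPM in LX-2Vector and at 13.4, 10.6 and 10.8 CPM in LX-2FAP. LX-2FAP replicate 1, at 13.39 CPM, was all but level with LX-2Vector replicate 1, at 13.44 CPM, so the groups were apart by less than the spread within either. Means were 15.3 ± 1.67 and 11.6 ± 1.54 CPM, with a log2 fold change of -0.38 (SE 0.11, 95% interval -0.61 to -0.16). With the replicate number as a block, 6 of the 9 genes were called and C3 was not, nor was it with the trend on GC content removed. Of the 6 fits that left out a library, 2 called C3. The ratio of C3 to CFB FPKM was 1.19, 1.51 and 0.952 in LX-2Vector and 1.5, 1.53 and 1.904 in LX-2FAP, which overlapped.

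CD46, CD55 and CD59 encode the complement regulators of the cell surface. CD46 (ENSG00000117335, chr1:207752057-207795513, plus strand) is a cofactor for the cleavage of deposited C3 and C4 products, and CD55 (ENSG00000196352, chr1:207321376-207386804, plus strand) speeds the decay of the C3-cleaving enzymes. They lie 365252 bases apart, with the complement receptor genes CR1, CR1L and CR2 between them. CD59 (ENSG00000085063, chr11:33703010-33736491, minus strand) blocks the pore-forming last step, and its window at chr11:33736430-33736729 on the minus strand is printed as that of the surface regulator that was higher, with capitals for GAS and NF-kB matches.

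CD59: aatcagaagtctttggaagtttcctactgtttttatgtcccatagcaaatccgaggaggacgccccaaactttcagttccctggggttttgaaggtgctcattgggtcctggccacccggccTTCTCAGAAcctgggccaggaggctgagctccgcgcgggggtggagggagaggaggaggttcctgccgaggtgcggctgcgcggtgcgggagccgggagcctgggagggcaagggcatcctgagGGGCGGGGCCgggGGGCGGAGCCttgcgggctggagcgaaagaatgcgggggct

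The GAS letters stood at -128 to -120 and the NF-kB letters at -4 to 6 and at 10 to 19. The 4 CD59 windows of the table differed in base composition and held 18 (the window shown), 22, 1 and 1 CpG pairs. Those of CD46 held 25 each and that of CD55 19, where PTX3 had 7, C1R 10 and 8, CFB 7 and the median over all windows was 14. RefSeq windows were matched for 6 of the 9 genes, and C1S, C3 and SERPING1 had none in the table used. Counting every window of a gene, NF-kB letters were found in 6 genes, C/EBP and GAS letters in 3 each, and AP-1 (TGANTCA), ISRE and TATA letters in 1 each, while CRE letters (TGACGTCA) were found in 0. The AP-1 letters lay in a CD59 window not shown. Among all windows, 7.71% held the AP-1 pattern and 1.85% the CRE pattern. All such shares are per window, so the counts of genes cannot be set against them.

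CD59 was at 250.2, 264.8 and 266 CPM in LX-2Vector and at 286.2, 284 and 296.5 CPM in LX-2FAP. The groups did not overlap, and the log2 fold change was the smallest in size among the 7 genes of which this held. Means were 260.3 ± 8.83 and 288.9 ± 6.67 CPM, a 1.11-fold level and a log2 fold change of 0.15 (SE 0.04, 95% interval 0.07 to 0.24). Of the 469 genes called higher, 442 had a larger log2 fold change. With library size as the only scaling, CD59 was not called, at a log2 fold change of 0.12. Of all 16 alternatives 8 called CD59, and of the 6 fits that left out a library 1 did. CD59 shares 6.07% of its exon bases with AL049629.2, which had 0 to 10 counts per library.

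CD46 lay at 185.3, 202 and 198.5 CPM in LX-2Vector and at 200.9, 190.5 and 198.2 CPM in LX-2FAP. These ranges overlapped almost fully, and the log2 fold change of 0.01 had a 95% interval of -0.08 to 0.10; its sign turned with library size as the only scaling (-0.02). CD55 was likewise mixed, at 42.7, 47.5 and 39.9 CPM in LX-2Vector and at 42.4, 48.0 and 44.6 CPM in LX-2FAP. Its log2 fold change was 0.05 with a 95% interval of -0.09 to 0.20. The summed FPKM of the 3 surface regulators was 52.5, 57.2 and 55.5 in LX-2Vector and 57.0, 56.4 and 57.8 in LX-2FAP, and these overlapped. The share of CD59 in that sum was 45.2 ± 0.756% in LX-2Vector and 47.4 ± 0.476% in LX-2FAP, with no overlap. Since CD59 was known to be higher and CD46 and CD55 were mixed, that direction follows from the choice and is no further result.

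Levels between genes were compared per length, in FPKM. In LX-2Vector the order was PTX3 (75.4 ± 2.32 FPKM), CD59 (24.9 ± 0.949), CD46 (22.6 ± 1.12), C1R (10.7 ± 1.63), CD55 (7.60 ± 0.689), C1S (6.55 ± 0.694), SERPING1 (2.42 ± 0.510), C3 (1.86 ± 0.210) and CFB (1.59 ± 0.467). Ranges of neighbours overlapped for CD55 and C1S and for C3 and CFB, and for no other neighbours. PTX3 was above 98.1% of tested genes and CFB above 35.8%. In LX-2FAP the order was the same but for C1R and CD55, which changed places with overlapping ranges, and SERPING1 and C3 overlapped as well. The gene length behind the deposited SERPING1 FPKM was 7231 bases, where the merged exons measure 3603 bases. On the annotated length the SERPING1 level was 4.86 FPKM in LX-2Vector and 2.78 FPKM in LX-2FAP, still the seventh of the 9, and no other rank moved.

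**Figure D2:**
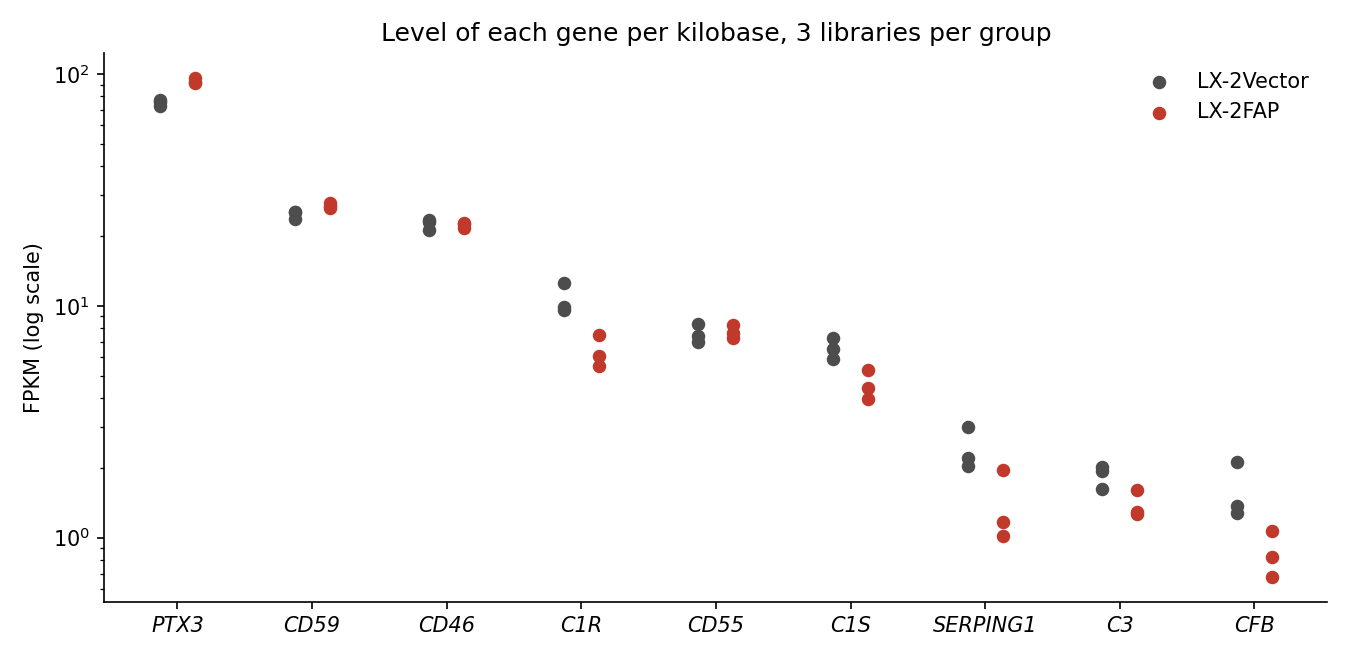
FPKM of each gene on a log scale, with 1 point per library and genes ordered by their mean in LX-2Vector. PTX3 stands alone near the top at 72.8 to 96.2 FPKM, CD59 and CD46 lie between 21.3 and 27.7 FPKM, and SERPING1, C3 and CFB lie at 3.00 FPKM or less.

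Taken as sums of FPKM as deposited, the 5 lower genes added up to 20.5, 21.8 and 26.97 FPKM in LX-2Vector and to 17.4, 12.6 and 13.7 FPKM in LX-2FAP. Means were 23.1 ± 3.41 and 14.6 ± 2.56 FPKM, and since each of these genes was put in the sum for being lower, the direction and the gap between the lines were fixed by that choice. PTX3 over this sum was 3.55, 3.49 and 2.87 in LX-2Vector and 5.25, 7.33 and 7.05 in LX-2FAP. That ratio joins a gene chosen as higher with genes known to be lower, so its direction was fixed as well.

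The pattern over the 6 libraries was compared between genes by the root mean square difference of log2 CPM, after centring each gene, among the 11556 tested genes that averaged 100 counts or more. This is a description over 6 libraries that share 1 contrast. The genes nearest to PTX3 were AOX1 (0.0296), DOCK4 (0.0306), CEP170 (0.0309), GLIPR1 (0.036) and TMEM200A (0.0369), with log2 fold changes of 0.39, 0.37, 0.29, 0.28 and 0.41. Nearest to C3 were NHS (0.0416), SEC31B (0.0438) and FCGRT (0.0441), the last of these the neonatal Fc receptor, with log2 fold changes of -0.36, -0.44 and -0.42. Within the set, C1S was the 25th nearest of 11555 genes to C3 (0.0721). C1R was the 9th nearest to CFB (0.178) and the 17th nearest to SERPING1 (0.171). Counted from C1R, SERPING1 was the 114th and CFB the 130th nearest, and from C1S the 2230th and 3738th. Counted from C3 they were the 8459th and 9484th, behind CD46 as the 3641st, though C3 was the 140th nearest to SERPING1 and the 156th to CFB. Ranks thus depended on the starting gene, and no pattern shared by all the lower genes is read from them. CD59 differed from PTX3 by 0.0933, less than C1R did from CFB or SERPING1, but ranked as the 476th nearest gene to PTX3.

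The rest of the complement and pentraxin genes was read from a list of 54 that are not among the 9. In these cells 10 of them had no count, among them C1QA, C1QB, C1QC, C6, C8A, C8B and the short pentraxins CRP and APCS, where 3 counts in the 6 libraries together would be 0.0234 CPM. A further 20 had at most 55 counts in all and were not tested. Of the 24 tested, 4 were called, 0 higher and 4 lower, and 17 had a negative and 7 a positive log2 fold change, with a median of -0.27. Over all 18275 tested genes, 2.57% were called higher and 2.73% lower, and 9685 had a negative and 8590 a positive log2 fold change. Beside the 5.29% of all tested genes called and their median of -0.01, this list was chosen with results of these data known, and 0 of its genes were called when LX-2FAP replicate 3 was left out (0.138% of all genes) and 8 when LX-2FAP replicate 1 was (10.4% of all genes).

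C1RL, a protease related to C1r that lies beside C1R, was at 19.8, 17.8 and 26.3 CPM in LX-2Vector and at 16.5, 11.6 and 13.7 CPM in LX-2FAP. The lines did not overlap, with means of 21.3 ± 4.45 and 13.9 ± 2.44 CPM (log2FC -0.60 with SE 0.13, adjusted p = 0.0194 by edgeR), though C1RL shares 13.4% of its exon bases with genes of its strand. CLU, clusterin, an inhibitor of the membrane pore, was at 143.8, 134.3 and 127.2 CPM in LX-2Vector and at 113.6, 110.8 and 109.4 CPM in LX-2FAP. It was the most abundant of the 4 called genes and fell from 135.1 ± 8.29 to 111.2 ± 2.13 CPM (log2FC -0.28 with SE 0.05, adjusted p = 0.00765 by edgeR). VTN, vitronectin, which also blocks pore formation, fell from 3.28 ± 0.547 to 2.06 ± 0.0981 CPM (log2FC -0.67 with SE 0.17, adjusted p = 0.0331 by edgeR). ITGAX, a subunit of a complement receptor of leukocytes, fell from 12.7 ± 0.520 to 9.13 ± 1.42 CPM (log2FC -0.47 with SE 0.10, adjusted p = 0.0211 by edgeR). None of the 4 was called without LX-2FAP replicate 3 or by limma. C1RL was also not called by DESeq2 (adjusted p = 0.0639) or on dropping LX-2Vector replicate 3 or LX-2FAP replicate 2. VTN and ITGAX were also not called with the GC trend removed (edgeR adjusted p = 0.0629 and 0.0541) or on dropping LX-2Vector replicate 1 or LX-2FAP replicate 2, nor was VTN on dropping LX-2Vector replicate 2 or ITGAX on dropping LX-2Vector replicate 3.

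Of the tested genes that were not called, C1QBP, a mitochondrial protein named for binding C1q, was the most abundant at 42.5 ± 0.380 FPKM in LX-2Vector and 46.1 ± 1.46 FPKM in LX-2FAP (log2FC 0.14, adjusted p = 0.0622 by edgeR). C5, the precursor of the pore-forming complex, was at 2.82 ± 0.178 and 2.65 ± 0.211 FPKM (log2FC -0.06, adjusted p = 0.746 by edgeR). MASP2, the protease of the lectin pathway, had a log2FC of -0.42 (adjusted p = 0.0801 by edgeR), and the membrane-bound neuronal pentraxin receptor NPTXR one of -0.43 (edgeR adjusted p = 0.0543). C4A, with 100 counts in all, and C4B, with 55, are near-identical copies whose reads can be split, so no difference was read from them.

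**Figure D3:**
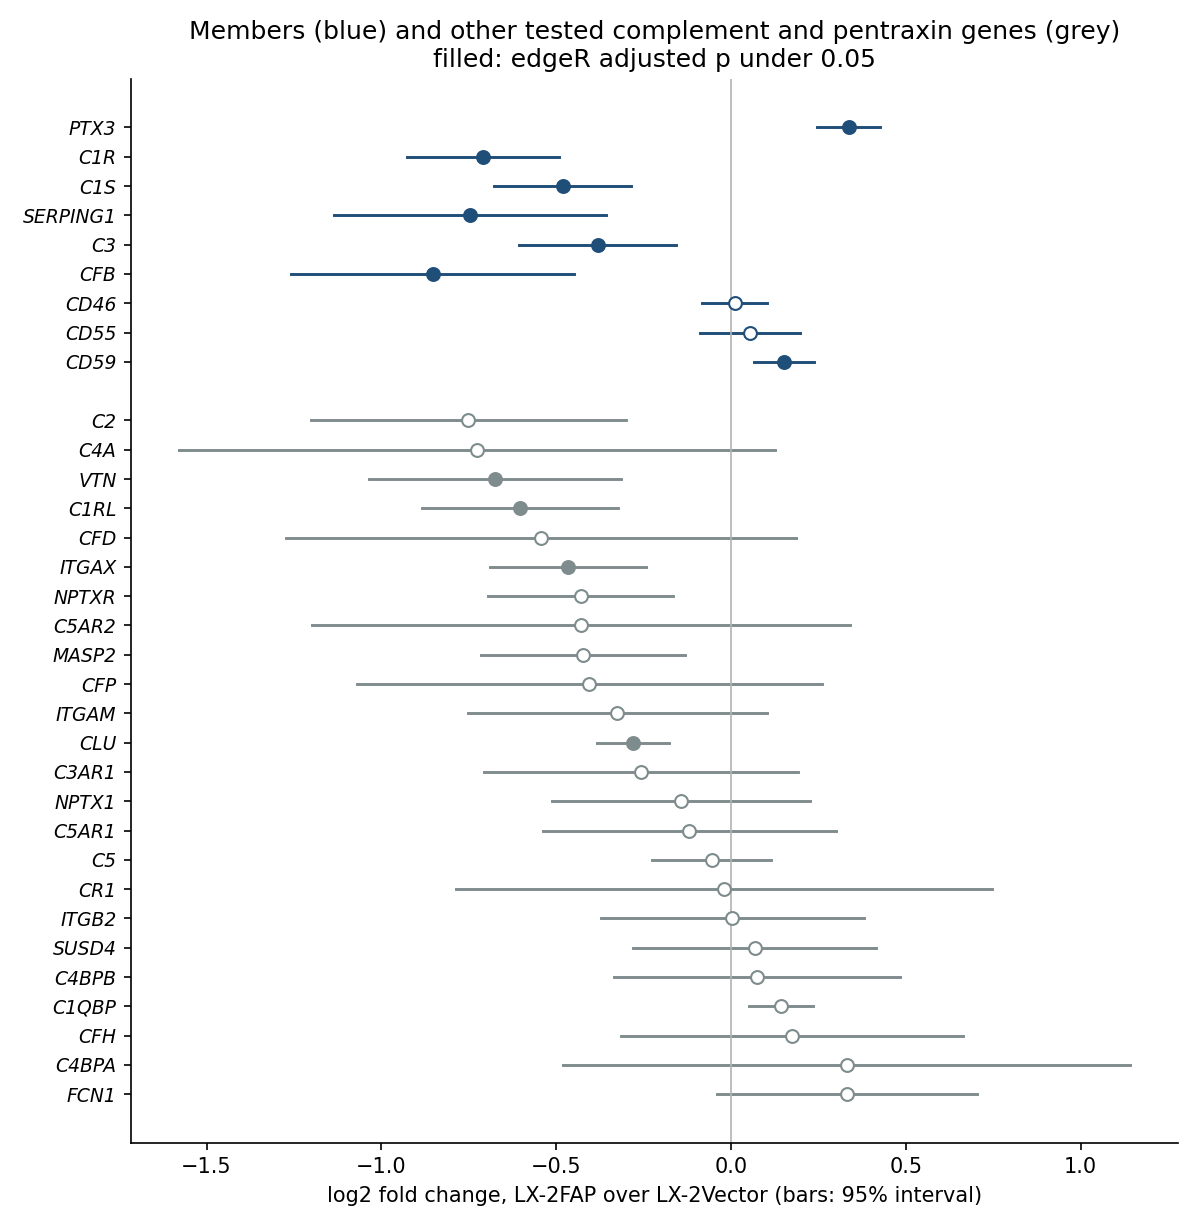
Log2 fold change of LX-2FAP over LX-2Vector with its 95% interval for the 9 genes (blue) and the 24 other tested complement and pentraxin genes (grey); filled points passed the call. The 5 lower genes of the set lie between -0.85 and -0.38, and the called genes of the list (VTN, C1RL, ITGAX and CLU) between -0.67 and -0.28.

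Hepatic acute-phase genes were mostly at or near 0, and 12 of 15 listed were not tested, none of them above 0.349 FPKM in a library. The 3 tested, SERPINA1, CP and SOCS3, had log2 fold changes of -0.28, -0.60 and -0.19, and 0 were called by edgeR, while 1 had an unadjusted p under 0.05, where all tested genes gave 5.29% and 22.2%. Transcription factors of the NF-kB, C/EBP, STAT, IRF and AP-1 families, with ATF3, made a list of 13, of which all 13 were tested, the median log2 fold change was -0.07 and 1 was called, while an unadjusted p under 0.05 was found for 3. Both counts are near the shares over all tested genes, so nothing is read from this list. The gene called was CEBPD, a C/EBP factor of the acute-phase response, at 3.03, 3.53 and 5.17 CPM in LX-2Vector and 2.55, 1.78 and 1.53 CPM in LX-2FAP. The lines did not overlap, and its mean fell from 3.91 ± 1.12 to 1.95 ± 0.530 CPM (log2FC -0.97 with SE 0.22, adjusted p = 0.0233 by edgeR). The call was lost on leaving out the third LX-2Vector library, or either the second or the third LX-2FAP library, and with the GC trend removed (edgeR adjusted p = 0.0727). Its sister CEBPB had a log2FC of 0.00 (adjusted p = 0.984 by edgeR), and STAT3 and RELA, which transmit interleukin and NF-kB signals, had -0.09 and -0.07 (edgeR adjusted p = 0.247 and 0.339).

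**Figure D4:**
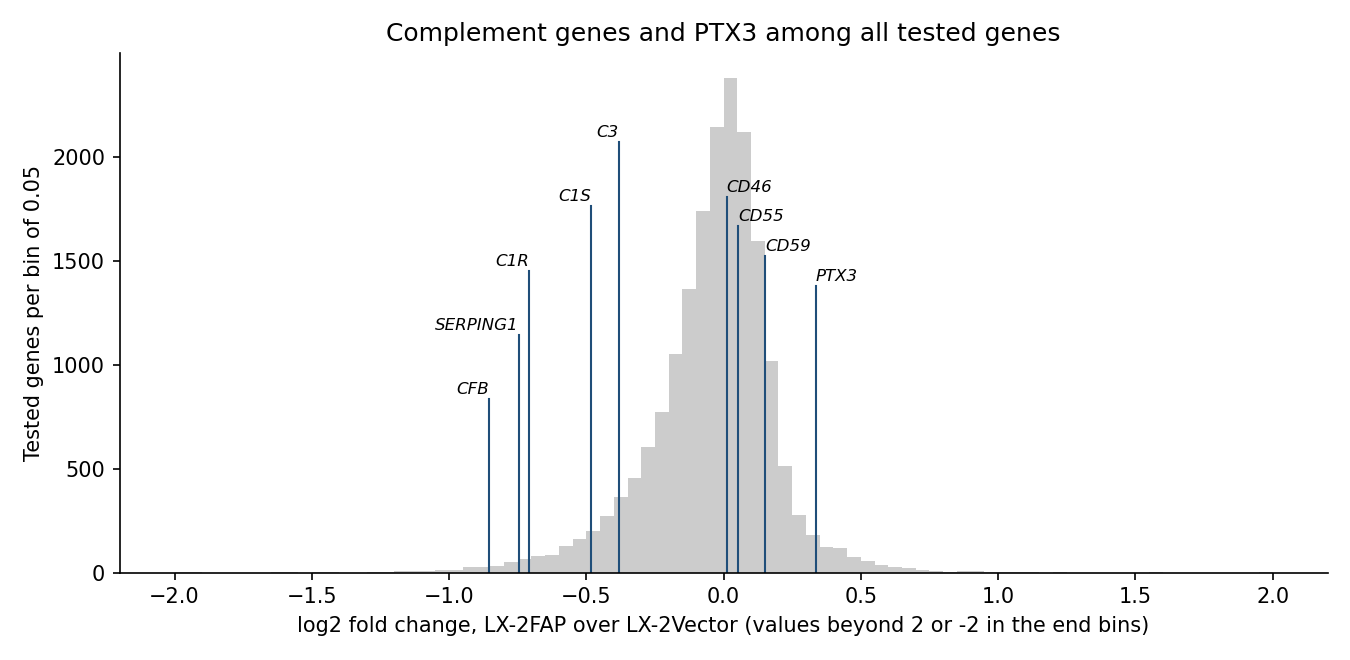
Number of tested genes per bin of log2 fold change (grey bars, LX-2FAP over LX-2Vector), with the position of each of the 9 genes marked by a line whose height has no meaning. CD46, CD55 and CD59 lie inside the bulk of the distribution at 0.01, 0.05 and 0.15, PTX3 at 0.34, and CFB, SERPING1 and C1R at -0.85, -0.75 and -0.71 in its lower tail.

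Leaving out each library in turn showed which values rest on which library. The log2 fold change ran from -0.85 to -0.57 for C1R, from -0.60 to -0.39 for C1S, from -0.50 to -0.30 for C3, from -1.06 to -0.59 for CFB and from -1.10 to -0.55 for SERPING1. For all 5, the largest fall came without LX-2FAP replicate 1 and the smallest without LX-2Vector replicate 3, and the sign stayed negative in each of the 6 fits. CD59 ran from 0.12 to 0.17, CD55 from 0.01 to 0.13 and CD46 from -0.03 to 0.04. Calls were kept in all 6 fits for PTX3 and C1R and in 4 for C1S. They were kept in 3 for CFB, in 2 each for C3 and SERPING1 and in 1 for CD59, while 0.138% to 10.4% of all tested genes were called.

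**Figure D5:**
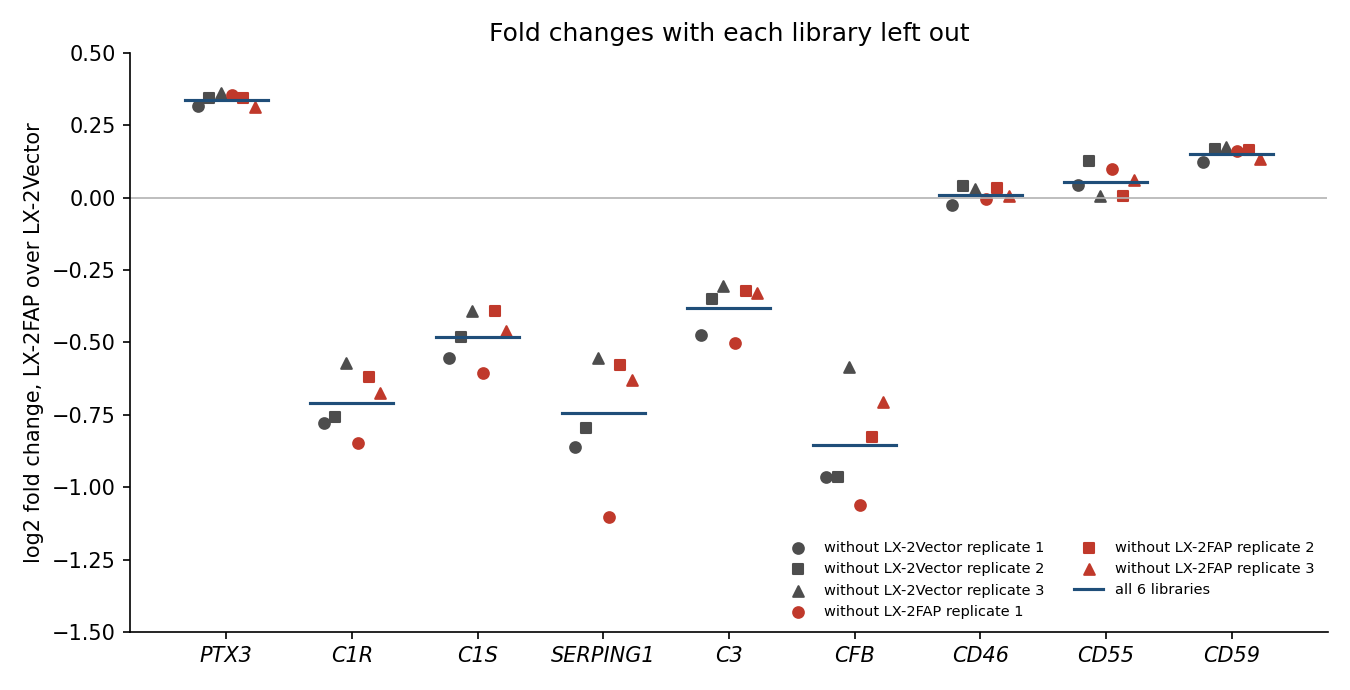
Log2 fold change of each gene with all 6 libraries (line) and with 1 library left out (points; grey for an LX-2Vector library, red for an LX-2FAP library). PTX3 stays between 0.31 and 0.36, while SERPING1 spreads from -1.10 to -0.55 and CFB from -1.06 to -0.59.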

How the data were processed

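RNA was sequenced in 6 libraries, and each title gave the library's group and replicate number. Ribosomal RNA was depleted per the labels, while the methods of the study list poly(A) isolation too. The authors aligned reads with HISAT2 2.0.5 and deposited whole-number counts per gene from featureCounts 1.5.0-p3, not normalized. The authors also deposited FPKM values, computed from gene length and count. The submitters' processing notes list hg18, while 58337 gene identifiers matched GENCODE release 29 (GRCh38), the source of the coordinates. Use of strand in counting is not given in the sources used here. Columns of annotation terms were not used.

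The deposited counts went through the edgeR 4.0.16 quasi-likelihood test (TMM, minimum count 10, minimum total count 15, no covariate, 2-sided), adjusted by the Benjamini-Hochberg method over 18275 genes. CPM are TMM-normalized counts scaled to library depth (log2FC, their log2 fold change), and intervals are 95% intervals from the test's standard error. The members and all gene lists were chosen with earlier results of these data known. Named genes were FAP, the 9 members, listed complement and pentraxin genes that were called or had a mean of at least 1 FPKM, PTX3-binding proteins, called genes of the other lists, the nearest genes by pattern and genes sharing exons with a member. SERPINA1, CP, SOCS3, CEBPB, STAT3, RELA, C4A and C4B were named after their values were seen. Alternatives were the DESeq2 1.42.0 Wald test (on the same genes), DESeq2 size factors, library size alone, other filters, a block for replicate number, limma 3.58.1 with pseudocounts of 1 and 0.1 on log2 FPKM, leaving out each library and a stricter threshold. Removal of a GC or a gene length trend (loess, span 0.5) was added after seeing the data. The edgeR step was tested on simulated data. Promoter windows came from RefSeq (GRCh38.p14) and were searched on both strands. Counts of replicates differed beyond sampling noise, with a chi-square of 2.06 to 5.02 for each degree of freedom.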

Additional observations from a re-analysis of the deposited data

How the results depend on the processing

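The 7 called genes of the set kept their sign in all 16 alternatives, a direction that their selection on this contrast had set. The number of the 9 genes called was 7 and became 0 with limma-trend on log2(FPKM + 1) and 0 on log2(FPKM + 0.1), with 7 at an unadjusted p under 0.05 a smallest adjusted p of 0.104 and 0.0922 and 0.0109% of all genes called by limma, and 2 at an adjusted p under 0.01. With each library left out it ran from 2 to 7, and the share of all genes called from 0.138% to 10.4%. The number called higher was 1 with library size alone, 0 with either limma setting, 1 at an adjusted p under 0.01, and 1 to 2 with a library left out. The number called lower was 0 with either limma setting, 3 with the GC trend removed, 1 at an adjusted p under 0.01, and 1 to 5 with a library left out. Of the other complement and pentraxin genes, 0 were called with either limma setting, 7 with the length trend removed, 1 at an adjusted p under 0.01, and 0 to 8 with a library left out. Of the regulators, 0 were called with the DESeq2 Wald test, which gave no adjusted p for CEBPD or VTN, 3 without a filter on low counts, 0 with either limma setting, 2 with the length trend removed, 0 at an adjusted p under 0.01, and 0 to 2 with a library left out. Acute-phase genes called stayed at 0 in all. The cause of these shifts was not tested. CD46, which was not called, had a log2 fold change of -0.0181 with library size alone, -0.0179 and -0.0185 with the limma settings, -0.0354 with the GC trend removed, and between -0.0251 (no LX-2Vector replicate 1) and 0.0419 (no LX-2Vector replicate 2) with a library left out, being -0.0035 when that was LX-2FAP replicate 1. In CPM, which is not per length, 6 of the 9 genes kept their rank by level.

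Deviations of same-numbered libraries of the lines had correlations of -0.14, 0.20 and -0.08, and those of differently numbered ones ran from -0.358 to 0.385. With 3 libraries a line, such values cannot show whether libraries were handled together. With the replicate number as a block, 975 genes were called, 465 higher and 510 lower, and 6 of the 9 genes, without C3. The library size setting moved the median log2 fold change of all genes from -0.01 to -0.04, and called 239 genes higher and 809 lower.

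With 3 libraries a line, CFB and SERPING1, the genes with wide intervals, were measured least precisely.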
